A study of Rattus norvegicus with 8 samples.

Results

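The genes described here are 7 interferon-induced genes of the rat testis, Gbp2, Gbp7, Ifi27l2b, Ifi30, Irf1, Isg15 and Isg20. They were picked by name out of 14217 named genes on the array, after their signals on these same arrays had been seen. Their levels and differences are therefore given as a description, with errors. Where the fit over all probe sets is counted for them, in any of the 3 comparisons, the count is set beside that of all probe sets and nothing is read from it. Every probe set whose only gene symbol was one of the 7 names was taken. That rule gave 1 probe set per gene, 7 of 20826 probe sets with a single symbol. All 7 passed the minimum signal for testing, a scaled signal of 100 on at least 2 arrays. Isg15 did so through its 4 d arrays alone, so it had to differ to be included.

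The study measured whole testis RNA of adult Sprague-Dawley rats on Affymetrix rat genome expression arrays, 1 array per sample. Testes were taken 4 d after a single oral dose of 50 mg/kg Adjudin (3 arrays), 8 h after the same dose (2 arrays) and from untreated rats (3 arrays). Adjudin is an indazole compound related to lonidamine that loosens germ cells from Sertoli cells and empties the seminiferous tubules of maturing germ cells. No genetic change was present in any group and no vehicle-treated group is named, so gavage and Adjudin cannot be told apart. The titles gave the groups, whereas the description field calls all 8 samples normal testis. Nothing in the labels ties each array to an animal of its own, so the spread behind the errors and p-values may be technical. Hybridisation had taken place in 3 runs. Run 1 held 4 d 1, 8 h 1 and untreated 1, run 2 held 4 d 2 and untreated 2, and run 3 held 4 d 3, 8 h 2 and untreated 3. Between 51.6% and 59.0% of probe sets reached a signal of 100 on an array, and log2 signals of arrays of the same group correlated at 0.954 to 0.978 across probe sets, which are not independent replicates. The number of arrays limits the precision of every value.

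Interferons are secreted proteins that bind receptors coupled to Janus kinases, which phosphorylate STAT transcription factors. Type I interferons are read mainly through the interferon-stimulated response element (ISRE) in the promoters of their target genes, and interferon gamma mainly through the gamma-activated site (GAS). The genes switched on in this way include further transcription factors such as IRF1, antiviral effectors, guanylate-binding GTPases and the machinery of antigen presentation. In the testis, where developing germ cells carry antigens that arise after immune tolerance is set, interstitial macrophages and Sertoli cells are known to keep immune responses low.

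The promoters are shown because the ISRE and the GAS are the sequences through which these genes are known to be read. Promoter sequences from RefSeq (rat build GRCr8) were at hand for 5 of the 7 genes, Gbp2, Gbp7, Ifi30, Irf1 and Isg20, and not for Ifi27l2b and Isg15. The 250 bases before the annotated start were searched for GAAANNGAAA, the core of the ISRE, on both strands, and for TTCNNNGAA, the palindromic GAS. An ISRE match was found in 3 of the 5, Gbp2, Gbp7 and Isg20. A GAS match was found in 2, Gbp7 and Irf1. Neither word was found in the window of Ifi30. Among 33469 rat promoter windows of the same length, 3.41% held the ISRE word and 7.67% held the GAS word. The 4 windows with a match are given 5′ to 3′ on the plus strand, which is the strand of all 4 genes, with the matches in capitals. They lie at chr2:234005477-234005726 for Gbp2, chr2:233948639-233948888 for Gbp7, chr10:38417685-38417934 for Irf1 and chr1:142239809-142240058 for Isg20.
Gbp2: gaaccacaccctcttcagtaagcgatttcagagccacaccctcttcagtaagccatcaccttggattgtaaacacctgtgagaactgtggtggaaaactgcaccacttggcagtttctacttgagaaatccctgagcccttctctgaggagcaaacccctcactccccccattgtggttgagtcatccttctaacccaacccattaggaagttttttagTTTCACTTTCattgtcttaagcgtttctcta
Gbp7: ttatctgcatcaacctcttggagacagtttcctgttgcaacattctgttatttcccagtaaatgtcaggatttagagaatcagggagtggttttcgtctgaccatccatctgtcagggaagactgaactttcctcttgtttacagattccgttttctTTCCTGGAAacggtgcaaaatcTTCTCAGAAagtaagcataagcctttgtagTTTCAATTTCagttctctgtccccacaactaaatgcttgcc
Irf1: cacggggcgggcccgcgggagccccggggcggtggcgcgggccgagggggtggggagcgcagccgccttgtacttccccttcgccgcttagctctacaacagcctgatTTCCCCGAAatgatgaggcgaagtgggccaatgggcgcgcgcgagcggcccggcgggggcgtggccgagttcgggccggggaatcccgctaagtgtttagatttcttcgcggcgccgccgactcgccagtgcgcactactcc
Isg20: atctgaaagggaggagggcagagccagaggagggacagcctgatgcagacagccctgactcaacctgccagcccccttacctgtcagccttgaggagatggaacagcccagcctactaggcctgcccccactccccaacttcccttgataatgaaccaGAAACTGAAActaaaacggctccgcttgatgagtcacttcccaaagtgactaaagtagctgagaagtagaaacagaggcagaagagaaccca
The windows of the GTPase genes Gbp2 and Gbp7 lie 56589 bases apart on chromosome 2. In Gbp2 the ISRE match begins 31 bases before the start and reads TTTCACTTTC on the plus strand. In Gbp7 it begins 41 bases before the start as TTTCAATTTC, and 2 GAS matches begin 93 and 71 bases before the start and do not overlap it. Irf1 has its GAS match 142 bases before the start, in a window with 71.2% G and C. In Isg20 the ISRE match GAAACTGAAA begins 92 bases before the start and lies on the plus strand. A match is a description of the letters and not a measured binding site.

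Levels below are MAS 5.0 signals after every array was scaled to the same trimmed mean, and differences are on the scale of log2(signal + 32), which understates the change of dim genes. Signals of different genes come from different probes and were not compared with each other. At 4 d, 6 of the 7 genes had higher signals than untreated testis on every array, with log2 differences of 1.55 to 2.26. Isg20 had lower signals on every array. Of all tested probe sets, 17.5% lay above untreated testis on every 4 d array and 11.8% below. At 8 h, Gbp2, Gbp7 and Irf1 already lay above untreated testis on both arrays, by 0.74 to 0.91 on the log2 scale, as did 7.32% of all tested probe sets. Ifi27l2b, Ifi30 and Isg20 overlapped with untreated testis. The plot of the signals on each array shows these patterns.

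**Figure D1:**
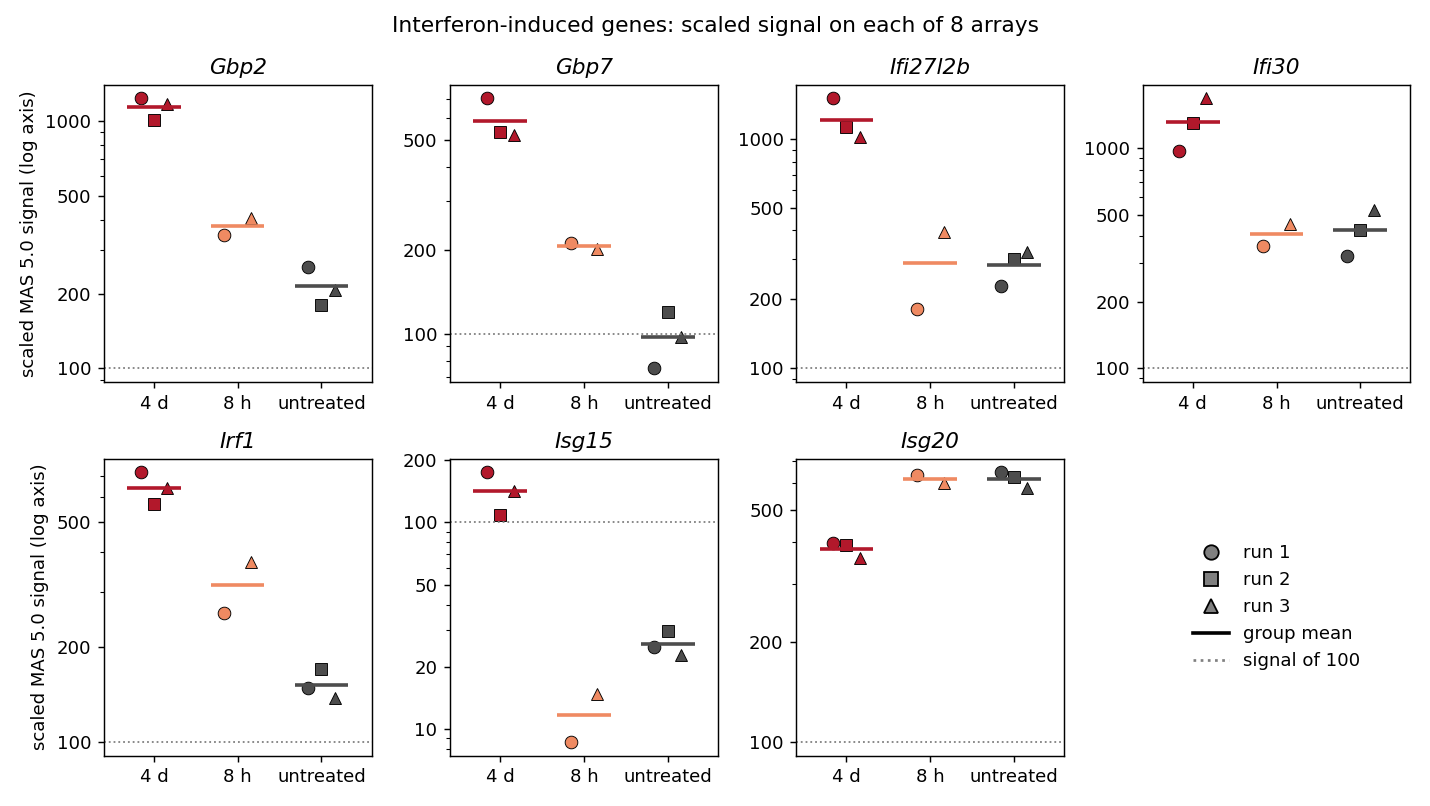
Scaled signal of the 7 interferon-induced genes on each of the 8 arrays, on a log axis, at 4 d, at 8 h and in untreated testis. Symbols mark the hybridisation run, horizontal lines the group means and the dotted line a signal of 100. Gbp2, Gbp7 and Irf1 lie above the untreated arrays at 8 h and higher still at 4 d, Ifi27l2b, Ifi30 and Isg15 stand high at 4 d, and Isg20 stands low at 4 d.

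Irf1 encodes a transcription factor that binds ISRE-like sequences and carries the interferon gamma response to further genes. Its probe set, 1368073_at, gave scaled signals of 718, 568 and 639.95 on the 4 d arrays, 256 and 372 on the 8 h arrays, and 148, 171 and 138 on the untreated arrays. The 3 groups did not overlap. Irf1 averaged 642 ± 75.1 at 4 d (SD, n = 3), 314 ± 81.7 at 8 h (SD, n = 2) and 152 ± 16.8 in untreated testis (SD, n = 3). The log2 difference between 4 d and untreated testis was 1.87 (SE 0.18), with 2.06, 1.56 and 1.99 within runs 1, 2 and 3. The 8 h arrays lay 0.89 (SE 0.21) above untreated testis, with 0.68 within run 1 and 1.25 within run 3. The difference present at 8 h was 47.8% of the 4 d difference on the log2 scale.

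Gbp2 encodes an interferon-induced GTPase of the guanylate-binding protein family, which in mice and humans gathers on the vacuoles and membranes of intracellular pathogens. Its probe set, 1368332_at, gave signals of 1235, 1014 and 1177 at 4 d, 348 and 406 at 8 h, and 257, 180 and 207 in untreated testis. All 3 groups were separate, and the lowest 4 d array stood above the highest 8 h array by more than the whole range of the untreated arrays. Gbp2 averaged 1142 ± 114 at 4 d (SD, n = 3), 377 ± 41.1 at 8 h (SD, n = 2) and 215 ± 38.6 in untreated testis (SD, n = 3). The log2 difference between 4 d and untreated testis was 2.26 (SE 0.17), with 2.13, 2.30 and 2.34 within runs 1, 2 and 3. The difference was 0.74 (SE 0.19) at 8 h, with 0.40 within run 1 and 0.87 within run 3. The 8 h difference was 32.6% of that at 4 d.

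Gbp7, a second guanylate-binding GTPase, followed the same order of groups. Probe set 1382950_at gave 706, 534 and 522 at 4 d, 213 and 203 at 8 h, and 75.0, 120 and 97.0 in untreated testis. The groups did not overlap, and 1 of the 3 untreated arrays reached a signal of 100. Gbp7 averaged 587 ± 103 at 4 d (SD, n = 3), 208 ± 7.50 at 8 h (SD, n = 2) and 97.4 ± 22.6 in untreated testis (SD, n = 3). Its log2 difference was 2.26 (SE 0.20) at 4 d. This difference spread more between runs than that of Gbp2, with 2.79, 1.90 and 2.10 within runs 1, 2 and 3. With 16 added before the logarithm it was 2.42, and 2.34 for Gbp2. With 64 added it was 2.01, and 2.12 for Gbp2, so its match with Gbp2 depended on the amount added. At 8 h the difference was 0.91 (SE 0.22), 40.0% of that at 4 d, with 1.20 within run 1 and 0.86 within run 3.

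Ifi30 encodes GILT, the lysosomal thiol reductase that opens disulfide bonds of antigens for presentation on MHC class II. Its probe set, 1372070_at, gave 967, 1301 and 1684 at 4 d, 360.1 and 453 at 8 h, and 325, 424 and 522 in untreated testis. All 4 d arrays stood above the other 5, and the 8 h arrays lay inside the untreated range. The means were 1317 ± 359 at 4 d (SD, n = 3), 407 ± 66.0 at 8 h (SD, n = 2) and 424 ± 98.4 in untreated testis (SD, n = 3). In both groups of 3 the run 1 array was lowest and the run 3 array highest, and the differences within runs 1, 2 and 3 were close, at 1.49, 1.55 and 1.63. The log2 difference was 1.55 (SE 0.23) at 4 d and -0.04 (SE 0.26) at 8 h.

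Ifi27l2b belongs to the ISG12 family of small hydrophobic interferon-induced proteins. Probe set 1376845_at gave signals of 1508, 1130 and 1019 at 4 d, 182 and 393 at 8 h, and 229, 300.1 and 322 in untreated testis. The 4 d arrays stood well above the rest, while the 8 h arrays lay on either side of the untreated range. The means were 1219 ± 257 at 4 d (SD, n = 3), 287 ± 149 at 8 h (SD, n = 2) and 284 ± 49.0 in untreated testis (SD, n = 3). The log2 difference at 4 d was 1.98 (SE 0.26), and 2.56, 1.81 and 1.57 within runs 1, 2 and 3. At 8 h it was -0.05 (SE 0.29), with opposite signs in the runs, -0.29 in run 1 and 0.26 in run 3.

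Isg15 encodes a ubiquitin-like protein that is attached to other proteins during an interferon response. Probe set 1382314_at was dim, with signals of 175, 109 and 142 at 4 d, 8.60 and 14.8 at 8 h, and 25.0, 29.6 and 22.8 in untreated testis. Every 4 d array was above 100 and every other array below 30, where signals have no dependable order, so the lower values at 8 h are not read as a difference. Isg15 averaged 142 ± 33.4 at 4 d (SD, n = 3), 11.7 ± 4.38 at 8 h (SD, n = 2) and 25.8 ± 3.47 in untreated testis (SD, n = 3). The log2 difference between 4 d and untreated testis was 1.57 (SE 0.31) and depended on the amount added before the logarithm, with 1.90 after adding 16 and 1.19 after adding 64. Within runs 1, 2 and 3 it was 1.86, 1.19 and 1.67.

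Isg20 encodes an interferon-induced exonuclease that degrades single-stranded RNA, and it ran opposite to the other 6 genes. Its probe set, 1390507_at, gave 397, 392 and 357 at 4 d, 638 and 599.9 at 8 h, and 649, 629 and 581 in untreated testis. The 4 d arrays lay below all others, and the 8 h arrays lay inside the untreated range. Isg20 averaged 382 ± 21.9 at 4 d (SD, n = 3), 619 ± 26.6 at 8 h (SD, n = 2) and 619.7 ± 34.7 in untreated testis (SD, n = 3). Its log2 difference was -0.65 (SE 0.13) at 4 d, with -0.67, -0.64 and -0.66 within runs 1, 2 and 3, and -0.00 (SE 0.15) at 8 h. Its spread at 4 d was the lowest among the 7 genes, with a coefficient of variation of 5.73%.

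**Figure D2:**
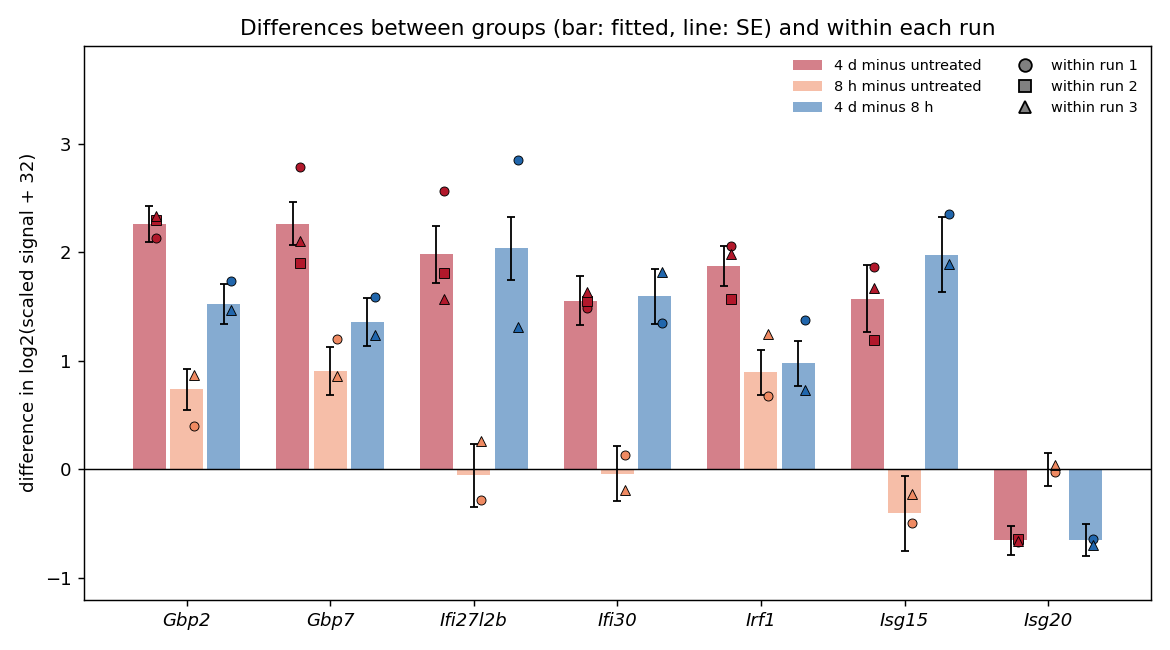
Differences in log2(scaled signal + 32) for the 7 genes between 4 d and untreated testis, 8 h and untreated testis, and 4 d and 8 h. Bars are fitted differences of group means, lines their standard errors and symbols the differences within each run. Between 4 d and untreated testis all 3 runs share the sign of the bar in every gene, and between 8 h and untreated testis the runs differ in sign in Ifi27l2b, Ifi30 and Isg20.

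By the fit across all 19785 tested probe sets (limma, Benjamini-Hochberg adjusted p below 0.05), 6 of the 7 genes were higher and 1 was lower at 4 d than in untreated testis. Among all tested probe sets 6.16% were higher and 3.73% lower by that rule. The median of the 7 log2 differences was 1.87, beside 0.036 over all tested probe sets. These counts come from the contrast that led to the choice of the genes. The call of Isg20 was absent without untreated 1 (log2 difference -0.62), untreated 2 (-0.64) or 4 d 1 (-0.68), and the call of Isg15 was absent without 4 d 1 (1.44) or 4 d 3 (1.56). The 4 d and untreated arrays did not overlap in any of the 7 genes, and of all probe sets 17.5% lay above on every array and 11.8% below.

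At 8 h none of the 7 genes passed the same limma test, and 0.0657% of all probe sets were higher and 0% lower by it. At an unadjusted p below 0.05, which 3.91% of all probe sets reached in either direction, 3 of the 7 did so, Gbp2, Gbp7 and Irf1. These 3 lay above untreated testis on both arrays, as did 7.32% of all probe sets, Isg15 lay below on both at signals under 100 in either group, as did 7.62% in all, and 3 overlapped. The median of the 7 differences was -0.00, beside -0.014 over all probe sets.

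Between 4 d and 8 h, 6 of the 7 genes were higher and Isg20 lower by the limma test, where 3.58% of all probe sets were higher and 2.47% lower. The log2 differences were 2.03 (SE 0.29) for Ifi27l2b, 1.59 (SE 0.26) for Ifi30, 1.52 (SE 0.19) for Gbp2, 1.36 (SE 0.22) for Gbp7, 0.98 (SE 0.21) for Irf1 and -0.65 (SE 0.15) for Isg20. That of Isg15, whose 8 h signals were 8.60 and 14.8, was 1.98 (SE 0.34) with 32 added before the logarithm, 2.50 with 16 and 1.43 with 64. Their median was 1.52, beside 0.059 over all probe sets. All 7 were without overlap, as were 21.2% of all probe sets above and 13.9% below. The comparisons of 4 d and of 8 h share the untreated arrays, and this one shares arrays with both. It rests on 2 arrays at 8 h. Without 8 h 1 the count of higher genes was 2, with Gbp7, Ifi30, Irf1 and Isg15 not called, and without 8 h 2 it was 3, with Gbp7, Irf1 and Isg15 not called. Irf1 and Isg15 were not called without 4 d 1, nor was Irf1 without 4 d 3. Isg20 was called without untreated 3 but not when any of the other 7 arrays was left out, with log2 differences of -0.69 to -0.61.

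The wider interferon pathway was followed with 172 further genes in 11 lists by role. The lists were chosen with earlier results of these data known, so their counts are a description. Each listed gene is its brightest probe set, whereas the shares set beside the counts are over all probe sets, named or not. Of these, 45 had no probe set with a single symbol, 25 stayed below the minimum signal and 102 were tested. At 4 d 38 of the 102 genes rose and 0 fell against untreated testis (limma, adjusted p below 0.05), beside 6.16% and 3.73% of all probe sets. The median log2 difference of the 102 genes was 0.62, beside 0.036 over all tested probe sets. Of the 102, 86 were above 0, and the share of all probe sets above 0 was not counted. Ifi44, Ifi44l, Ifit2, Cxcl11, Ticam1, Mx1 and Plscr1 passed the minimum signal through 4 d arrays alone, so they had to be high there to be included. Of these, Plscr1 alone passed the test at 4 d. At 8 h 0 rose and 0 fell, with 8 higher and 1 lower at an unadjusted p below 0.05, beside 3.91% of all probe sets in either direction, and a median of -0.00. With the hybridisation run as a block, 51 rose and 2 fell at 4 d, beside 13.3% and 9.19% of all probe sets. At 8 h 2 then rose and 0 fell, beside 0.268% and 0.0101%. Between 4 d and 8 h 29 of the 102 rose and 0 fell, beside 3.58% and 2.47%, and with the block 44 rose and 1 fell, beside 8.57% and 7.09%. Without 4 d 1 the count at 4 d was 25, and without any other single array it was 26 to 38.

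**Figure D3:**
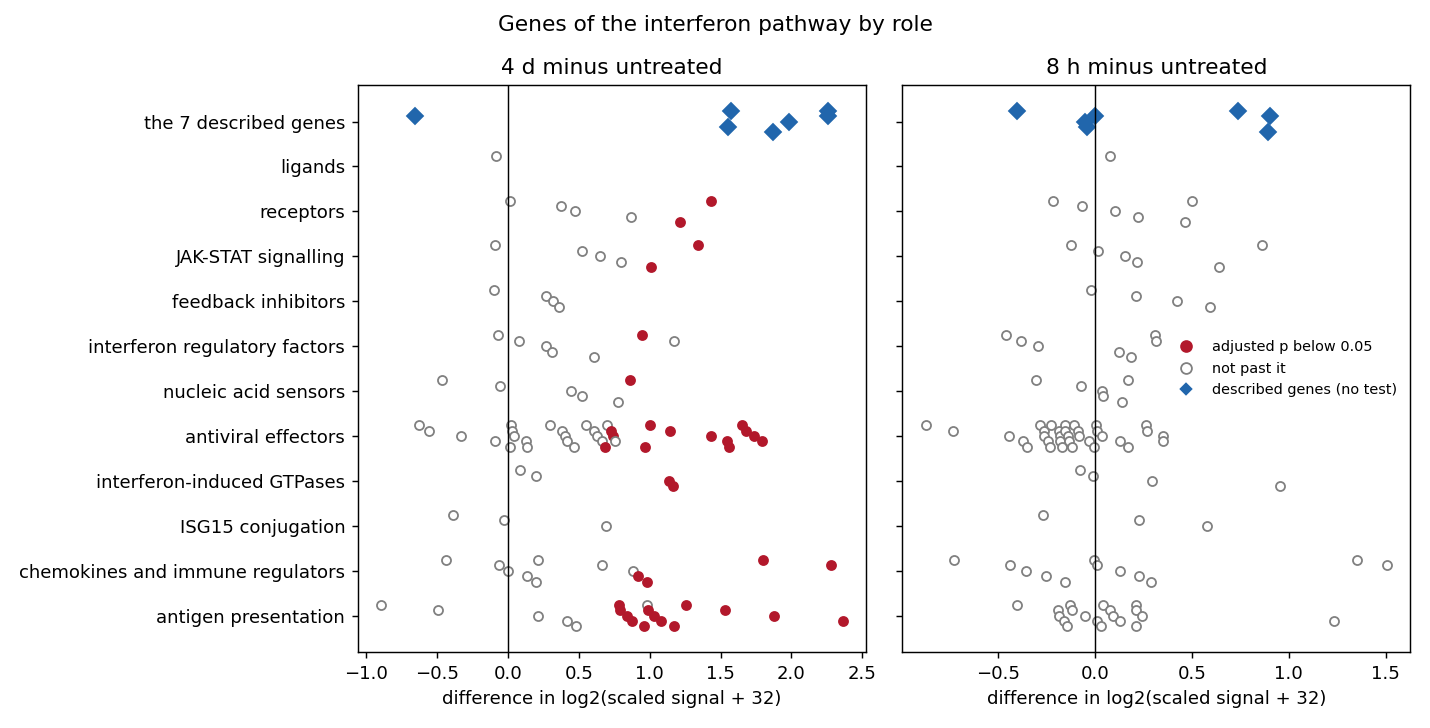
Differences in log2(scaled signal + 32) between 4 d and untreated testis (left) and between 8 h and untreated testis (right). Each circle is 1 tested gene of the wider interferon pathway, by role, filled where its limma adjusted p was below 0.05, and diamonds are the 7 described genes, shown without a test. At 4 d 38 of 102 circles are filled, all to the right of 0, and at 8 h none is.

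Among the ligands, Ifng had a highest signal of 79.0 and Ifnb1 of 8.80 on any array, and both stayed below the minimum. Ifnk, a type I interferon, was the 1 ligand tested, with a log2 difference of -0.08 (SE 0.38, limma adjusted p = 0.939) at 4 d. Ifnk was dim, with signals of 36.2 to 134 over the 8 arrays. Of the 13 listed ligands, 8 had no probe set with a single symbol and were not followed. All listed interferon alpha and lambda genes were among these. Of 6 receptor genes 2 rose at 4 d. They were Il10rb, a chain shared by the receptors of interferon lambda and interleukin-10, by 1.44 (limma adjusted p = 0.000936), and Ifngr2, the signalling chain of the interferon gamma receptor, by 1.22 (limma adjusted p = 0.00155). The other 4 receptor genes did not pass the test.

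Of 6 JAK-STAT genes, Stat3 rose by 1.34 (limma adjusted p = 0.00328) and Jak2, the kinase bound to the interferon gamma receptor, by 1.01 (limma adjusted p = 0.0150). None of 4 feedback inhibitors passed, and Ptpn1, a phosphatase that acts on Janus kinases, was the nearest at 0.27 (limma adjusted p = 0.312). Socs1, the interferon-induced inhibitor of Janus kinases, stayed below the minimum with a highest signal of 37.6. Irf2, a relative of Irf1 that competes for the same DNA sites, was 1 of 7 regulatory factor genes to pass, at 0.95 (limma adjusted p = 0.0481). Myd88, the adaptor of Toll-like receptors, rose by 0.86 (limma adjusted p = 0.00391) and was 1 of 6 genes on the sensor list to do so.

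Of 34 antiviral effectors 13 rose at 4 d. The highest differences were those of Ifitm3, which blocks fusion of virus with endosomes, at 1.79 (limma adjusted p = 0.000883), Plscr1, a phospholipid scramblase, at 1.74 (limma adjusted p = 0.00492), Lgals3bp, a secreted galectin ligand, at 1.68 (limma adjusted p = 9.74e-05), and Parp9, an ADP-ribosyltransferase family member, at 1.65 (limma adjusted p = 0.000645). Plscr1 passed the minimum signal through its 4 d arrays alone, with 203, 211 and 237 at 4 d, 56.0 and 70.4 at 8 h, and 20.2, 64.8 and 49.6 in untreated testis, so its difference depends on the amount added before the logarithm. Among the 21 that did not pass were 7 classical antiviral genes, picked after their values were seen. Their log2 differences were 0.75 (SE 0.26) for Ifi44l, 0.66 (SE 0.26) for Rsad2, 0.55 (SE 0.28) for Ifi44, 0.42 (SE 0.32) for Ifit2, 0.13 (SE 0.28) for the GTPase Mx1, 0.03 (SE 0.34) for the RNA-binding protein Ifit1 and -0.09 (SE 0.26) for the RNA sensor Oas1a. All 7 were dim, with signals of 26.4 to 212 over the 8 arrays, and Ifi44l, Ifi44, Ifit2 and Mx1 passed the minimum signal through 4 d arrays alone. Irf7, the regulator of type I interferon production, stood at 0.31 (SE 0.21) and did not pass either.

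Of 4 further interferon-induced GTPases 2 rose, Gbp4 by 1.16 (limma adjusted p = 0.0179) and Irgm2, an immunity-related GTPase, by 1.14 (limma adjusted p = 0.00576). None of 3 tested genes that attach or remove Isg15 passed at 4 d. Ube2l6, the conjugating enzyme for Isg15, stood at 0.69 (SE 0.24, limma adjusted p = 0.114), Uba7, its activating enzyme, at -0.03 (SE 0.21) and Usp18, the protease that removes it, at -0.39 (SE 0.27).

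Of 12 chemokine and immune regulator genes 4 rose. Serping1, the inhibitor of complement component C1, rose by 2.28 (limma adjusted p = 0.000344), Icam1, an adhesion molecule for leukocytes, by 1.80 (limma adjusted p = 0.00306), Cxcl9, a chemokine for T cells, by 0.98 (limma adjusted p = 0.0177), and Il18bp, which binds interleukin-18, by 0.92 (limma adjusted p = 0.0218). Beside 6.16% of all probe sets, antigen presentation had the highest share of the lists, with 13 of 19 genes rising at 4 d. Among them RT1-Da, the alpha chain of an MHC class II molecule, rose by 2.36 (limma adjusted p = 0.000291), Cd74, the class II invariant chain, by 1.88 (limma adjusted p = 0.000103), RT1-Ba, a second class II alpha chain, by 1.53 (limma adjusted p = 0.0270), and Erap1, a peptide-trimming enzyme, by 1.26 (limma adjusted p = 0.0282). The immunoproteasome subunits Psmb8, Psmb9 and Psmb10 were also among the 13, with Psmb9 and Psmb10 named after their values were seen. Of the other probe sets of RT1-Ba, 2 pointed the other way without passing the test.

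Of the 38 genes 23 passed whichever array was left out. Among those named, Jak2 (limma adjusted p = 0.0757), Irf2 (0.183), Gbp4 (0.0881), Cxcl9 (0.0838), Il18bp (0.101), and RT1-Ba (0.0978) did not pass without 4 d 1. Erap1 failed there too and had its highest value without untreated 2 (limma adjusted p = 0.0872), where the other 6 also failed. Without 4 d 3 all of these except Jak2 failed. Without 4 d 2 Jak2, Irf2 and Il18bp failed, without untreated 3 Irf2, Il18bp, RT1-Ba and Erap1, and without untreated 1 Irf2. Psmb10 failed without untreated 1 or untreated 2, with a highest limma adjusted p of 0.0618.

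At 8 h the genes nearest to a call outside the 7 were Cxcl10, a chemokine induced by interferon gamma, and Icam1. Cxcl10 gave signals of 261, 186 and 189 at 4 d, 398 and 322 at 8 h, and 123, 111 and 129 in untreated testis, so the 8 h arrays were the highest of the 8. Its log2 difference at 8 h was 1.35 (limma adjusted p = 0.0942), and with the run as a block it was 1.29 (limma adjusted p = 0.0291). Icam1 gave signals of 379, 294 and 466 at 4 d, 246 and 362 at 8 h, and 53.0, 90.0 and 119.5 in untreated testis. Its log2 difference at 8 h was 1.51 (limma adjusted p = 0.214), and 1.45 (limma adjusted p = 0.0312) with the block. The other 8 h differences closest to a call on their lists were 0.95 for Gbp4, 0.86 for Stat3, 0.58 for Uba7, 0.46 for Ifngr2 and 0.42 for Ptpn1, with limma adjusted p-values of 0.469 or more. On the remaining lists they were 0.08 for Ifnk, -0.46 for Irf2bp1, -0.30 for Ticam1, -0.88 for Ifi44 and -0.19 for Psmb8, each with a limma adjusted p of 1.00.

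Promoter windows were at hand for 85 of the 102 tested genes, and 30 of them (35.3%) held the ISRE word and 17 (20.0%) the GAS word. Of the 34 that rose at 4 d, 15 (44.1%) held the ISRE word and 6 (17.6%) the GAS word. Of the 51 that did not pass, 15 (29.4%) held the ISRE word and 11 (21.6%) the GAS word. The difference between these shares was not tested.

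In whole tissue, more cells of a type and more RNA per cell cannot be told apart, and the same holds for fewer cells and less RNA. Markers of leukocytes moved with the 6 genes at 4 d. The summed signal of 10 macrophage markers was 7426 to 8555 at 4 d, 4223 to 4569 at 8 h and 3931 to 4437 in untreated testis. Of its 9 tested genes 6 rose at 4 d and Adgre1 fell (limma adjusted p = 0.00855), at 384, 443 and 372 on the 4 d arrays, 647 and 676 at 8 h, and 696, 642 and 725 in untreated testis. Lyz2 and Mrc1 held the largest parts of the macrophage sum. Lyz2, which rose, averaged 2647 at 4 d, 703 at 8 h and 727 in untreated testis. Mrc1 averaged 2285, 1874 and 1702 in the same order and did not pass at 4 d (limma adjusted p = 0.0900). The general leukocyte markers Ptprc, Coro1a and Laptm5 summed to 625 to 684 at 4 d, 332 to 339 at 8 h and 132 to 259 in untreated testis. Of these 3, Coro1a and Laptm5 rose at 4 d, and Ptprc did not pass (limma adjusted p = 0.0547). Ptprc reached the minimum signal through its 4 d arrays alone.

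Markers of lymphocytes did not separate the groups in this way. The 11 T and NK cell markers summed to 663 to 799 at 4 d, 475 to 776 at 8 h and 630 to 734 in untreated testis. Of these, Cd3d, Cd3g, Nkg7, Gzmb, Prf1, Klrd1 and Klrb1a stayed below 100 on all 8 arrays, and 1 of the 11, Cd4, was tested and did not pass. The 3 measured B and plasma cell markers summed to 361 to 482 at 4 d, 373 to 543 at 8 h and 487 to 604 in untreated testis. All 3 measured markers of neutrophils (S100a8, S100a9 and Csf3r) and all 3 of dendritic cells (Flt3, Clec9a and Itgax) stayed below 100 on all 8 arrays.

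Sertoli cell markers summed to 11214 to 14269 at 4 d, 8167 to 9507 at 8 h and 7242 to 8222 in untreated testis. Most of that sum was Cldn11, a tight junction protein, which rose at 4 d (limma adjusted p = 0.0153) and averaged 10323 at 4 d, 6783 at 8 h and 6046 in untreated testis. Rhox5 fell (limma adjusted p = 0.0450), and Wt1, Gata4 and Amh did not pass. Rhox5 was dim, with signals of 8.80 to 36.4 at 4 d, 45.4 to 107 at 8 h and 56.98 to 147 in untreated testis. The size of its fall therefore depends on the amount added before the logarithm. Endothelial markers summed to 1045 to 1124 at 4 d, 620.3 to 878 at 8 h and 651 to 809.9 in untreated testis, with 0 of 4 tested passing. Leydig cell markers overlapped between groups, at 14302 to 23924 at 4 d, 10408 to 14373 at 8 h and 11738 to 16283 in untreated testis. The 6 markers of late germ cells, which identify the tissue as testis with advanced spermatogenesis in all 3 groups, summed to 102691 to 151801 at 4 d, 148164 to 196534 at 8 h and 141914 to 222360 in untreated testis, and 2 of the 6 fell at 4 d. Both tested red blood cell genes rose at 4 d, with sums of 6396 to 11216 at 4 d, 4080.3 to 4609 at 8 h and 3018 to 4968 in untreated testis. No marker on any of these lists passed the test at 8 h. The part of any of these cell types in the levels of the 7 genes was not tested.

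**Figure D4:**
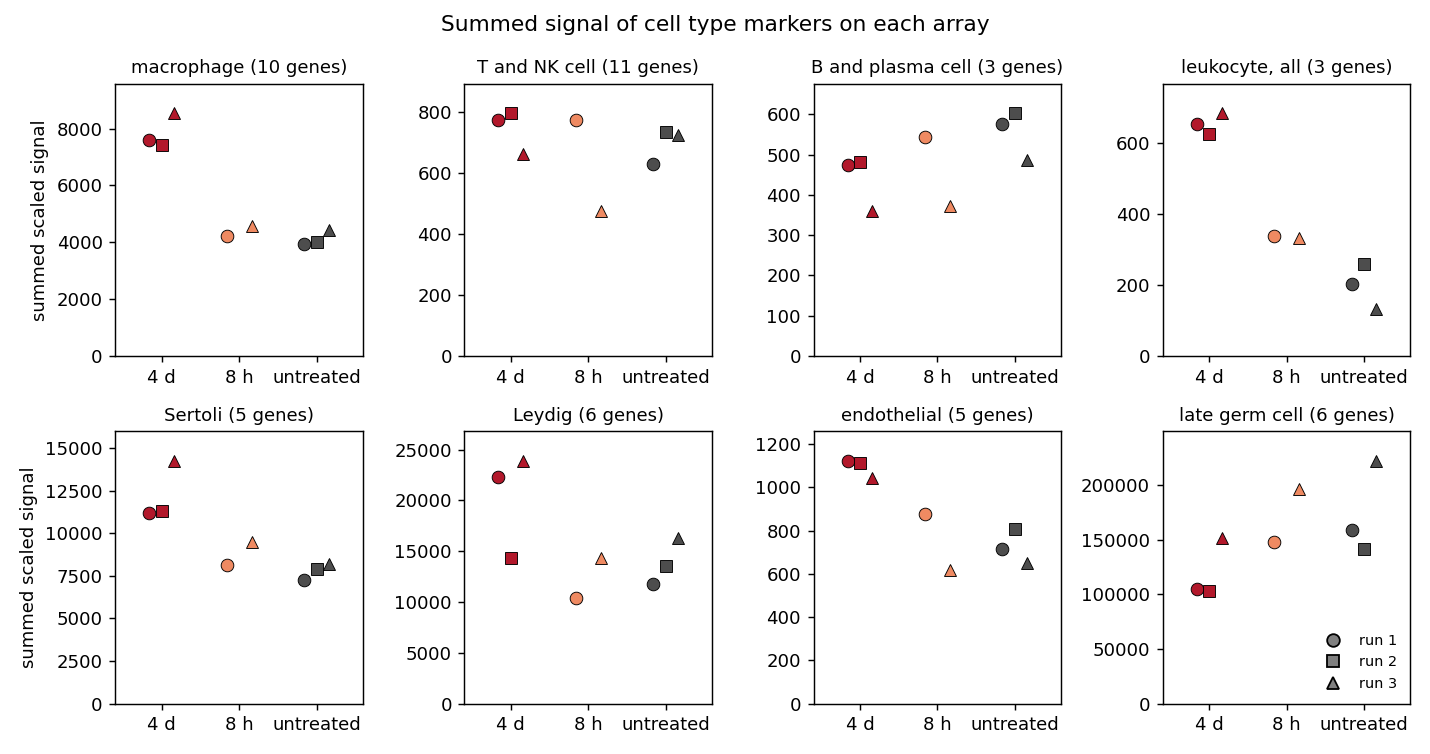
Summed scaled signal of 8 lists of cell type markers on each array, at 4 d, at 8 h and in untreated testis, on linear axes that start at 0. Symbols mark the hybridisation run. The macrophage, general leukocyte, Sertoli and endothelial sums of the 4 d arrays lie above those of all other arrays, the Sertoli sum being mostly Cldn11, and the T and NK cell and Leydig cell sums overlap between groups.

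The 7 genes differed in which other genes they resembled over the 8 arrays. Among 11234 named genes, likeness was measured by Pearson's r of log2 signals, as a description over 8 arrays in 3 groups that share their runs. Gbp2 was most like Prr13 (0.996), Cemip (0.991) and the haem-binding plasma protein Hpx (0.989). Gbp7 was most like Ncald (0.992), Arpc5 (0.991) and Rbm34 (0.987). For Irf1 the nearest were the iron transporter Slc11a2 (0.994), Mapre1 (0.992) and Slc45a4 (0.988). These 9 genes averaged higher at 4 d than at 8 h and higher at 8 h than in untreated testis. That order follows from their choice by likeness to genes that have it.

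Ifi30 was most like the tetraspanin Cd151 (0.993), the antiviral membrane protein Ifitm2 (0.991) and Dynlt3 (0.990). Ifi27l2b was most like Trim2 (0.989), Tmem250 (0.988) and the aldehyde dehydrogenase Aldh2 (0.987). For Isg15 the nearest were Lrrn4 (0.995), the antiviral protein Trim5 (0.994) and Fkbp10 (0.987), but 5 of its 8 signals were below 30 and have no dependable order, so this ranking is not firm. Isg20 was most like Col22a1 (0.991), Lrp8 (0.990) and Mroh3 (0.990). Within the 7 genes, Irf1 had an r of 0.977 with Gbp7 and 0.970 with Gbp2, and Isg20 had an r of -0.984 with Ifi30.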

How the data were processed

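Signal intensity per probe set was deposited by the authors as linear MAS 5.0 values, per the labels' protocols, and GeneSpring 7.2 is also named in the design text. Detection calls were not used. Each array was scaled here to a 2% trimmed mean of 500, and log2(signal + 32) was taken. A probe set was kept where 2 or more arrays reached a signal of 100, which held for 19785 of 31042 after removal of 57 control probe sets. One fit over the 8 arrays used limma 3.58.1 and R 4.3.3 (lmFit, eBayes with a trend, two-sided, Benjamini-Hochberg over all tested probe sets, threshold 0.05). The procedure was also run on simulated data with independent noise and no run effect, so that trial does not cover arrays that share a run.

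The 7 genes and all lists were chosen with earlier results of these data known. A gene of the wider lists was represented by its brightest probe set. Of each list, up to 4 genes with the largest called difference at 4 d and at 8 h are named or, where none was called, the gene with the smallest p, and for likeness the 3 highest correlations. Deviations from group means of arrays in the same hybridisation run, found from the array settings, correlated at 0.353 to 0.507 (7 pairs). Those of other pairs correlated at -0.476 to 0.246 (14 pairs), so the run was taken to pair arrays. Deviations within a group balance out, so these pairs are not independent. Errors, p-values and calls come from the fit without the run unless the block is named. Alternatives tried were the amount added before the logarithm, quantile normalization, equalised medians, no signal minimum, no trend, the run as a block and each array left out. Promoter sequences came from RefSeq (GRCr8). Probe sets with several or no symbols were not used for naming.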

Additional observations from a re-analysis of the deposited data

How the results depend on the processing

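No called difference of the 7 genes reversed under the alternatives run. Relative to 1956 probe sets called between 4 d and untreated testis, equalised medians gave 1152, the run as a block 4451, and leaving out 1 array 899 to 1813. Between 8 h and untreated testis 13 were called, with 20 under equalised medians, 55 with the block and 0 to 15 without 1 array, 0 without either 8 h array. Between 4 d and 8 h 1198 were called, with 520 under equalised medians, 3098 with the block and 263 to 1507 without 1 array. Of the wider interferon genes 25 to 38 were called at 4 d without 1 array. At 8 h 1 was called under equalised medians and 2 with the block, against 0. Between 4 d and 8 h 29 were called, with 12 under equalised medians, 45 with the block and 12 to 33 without 1 array. The median of the 7 genes was 1.56 within run 2 at 4 d (1.87 over all arrays, 1.79 to 1.95 without 1 array). At 8 h it was 0.26 within run 3, and -0.0014 to 0.44 without 1 array, 0.44 without 8 h 1. Between 4 d and 8 h it was 1.42 to 1.62 without 1 array. The block left the calls of the 7 genes as they were, and Irf1 and Isg20 lost theirs between 4 d and 8 h under equalised medians, which moved the median of all probe sets there to -0.052, against 0.059. The causes were not tested. Signals below 100, as for Isg15 at 8 h and in untreated testis, limit what can be said of low levels.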

Other observations

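In a pair of MHC genes of the antigen presentation list, the signal on 4 d 3 was by far the lowest of the 8. RT1-Bb, an MHC class II beta chain, gave scaled signals of 1819, 1885 and 22.2 on the 4 d arrays, 2630 and 1334 on the 8 h arrays, and 1762, 1414 and 174 on the untreated arrays. RT1-CE5, an MHC class I gene, gave 527, 894 and 1.20 at 4 d, 555 and 413 at 8 h, and 343, 334 and 775 in untreated testis. The low values of RT1-Bb fell on 4 d 3 and untreated 3, and that of RT1-CE5 on 4 d 3. Neither gene passed the limma test at 4 d (adjusted p = 0.879 for RT1-Bb and 0.673 for RT1-CE5). Of 2 tested probe sets of RT1-Bb and 4 of RT1-CE5, 1 of each pointed the other way at 4 d without passing the test.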
